A study of Mus musculus with 7 samples.

Results

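The 6 genes examined here encode 2 neurotrophins (Bdnf and Ntf3), their signalling receptors (Ntrk2 and Ntrk3), the shared neurotrophin receptor p75 (Ngfr) and the sorting receptor sortilin (Sort1). They were selected by gene symbol. They account for 6 of 22248 entries in the gene table and, with all their annotated isoforms, for 48 of 102392 entries in the transcript table. RNA was sequenced from hippocampal synaptoneurosomes of female wild-type mice of the C57Bl/6J strain. Synaptoneurosomes are a fraction of brain tissue enriched for pinched-off nerve endings with the postsynaptic parts still attached. One group received AM6545 sub-chronically (4 libraries, replicates B, D, E and F) and the other received vehicle (3 libraries, replicates B, D and E). AM6545 blocks the cannabinoid receptor CB1 and acts mainly outside the brain, which it enters poorly. The sources used here give no age, dose, duration or count of mice behind a library. Because nothing states that the libraries came from separate animals, p-values measure the spread between these libraries, which may be technical.

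Neurotrophins are secreted proteins that support the survival of neurons and adjust the strength of synapses. BDNF binds the receptor tyrosine kinase TrkB, encoded by Ntrk2, and NT-3, encoded by Ntf3, binds TrkC, encoded by Ntrk3. Both receptor genes also give truncated forms that keep the ligand-binding and membrane-spanning parts and lack the kinase. In the adult brain truncated TrkB is abundant in astrocytes. The p75 receptor binds all neurotrophins and their precursors, and sortilin carries proneurotrophins through the secretory pathway and acts as a p75 partner at the cell surface. Transcription of Bdnf starts at several alternative first exons, each spliced to the same coding exon, and the promoter before exon IV is the one best known for its response to neuronal activity.

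The forms of the receptors are told apart by short stretches at their coding ends. All coordinates are on GRCm38 (mm10), with transcript models from GENCODE M21. The truncated TrkB transcript Ntrk2-204 shares its first 464 codons with the full-length transcript Ntrk2-207 and then reads 11 codons of its own before its stop codon. In the pair below the shared bases are in lower case, and capitals mark the first bases that differ in source: the coding end with the stop codon in Ntrk2-204 (chr13:58932023-58932060, plus strand) and the same length of full-length coding sequence in Ntrk2-207 (chr13:58985802-58985839, plus strand).
Ntrk2-204: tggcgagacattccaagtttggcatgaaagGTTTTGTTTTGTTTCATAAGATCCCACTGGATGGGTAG
Ntrk2-207: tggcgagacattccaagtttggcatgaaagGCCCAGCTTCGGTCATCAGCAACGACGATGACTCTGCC
A rarer truncated transcript, Ntrk2-205, leaves at the same junction and reads 27 codons of its own from another exon (chr13:58878339-58878424, plus strand, capitals).
Ntrk2-205: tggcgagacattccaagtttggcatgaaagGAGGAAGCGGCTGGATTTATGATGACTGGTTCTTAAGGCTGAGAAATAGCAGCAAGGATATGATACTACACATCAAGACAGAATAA
The truncated TrkC transcript Ntrk3-202 shares 528 codons with full-length Ntrk3-201. The junction then splits a codon, which differs between the forms, and 83 whole codons of its own follow in Ntrk3-202. Its own bases are read from 2 exons (chr7:78302629-78304426, minus strand, capitals with the stop codon). Ntrk3-201 instead continues into the exon at chr7:78260295-78260414 (minus strand, capitals).
Ntrk3-202: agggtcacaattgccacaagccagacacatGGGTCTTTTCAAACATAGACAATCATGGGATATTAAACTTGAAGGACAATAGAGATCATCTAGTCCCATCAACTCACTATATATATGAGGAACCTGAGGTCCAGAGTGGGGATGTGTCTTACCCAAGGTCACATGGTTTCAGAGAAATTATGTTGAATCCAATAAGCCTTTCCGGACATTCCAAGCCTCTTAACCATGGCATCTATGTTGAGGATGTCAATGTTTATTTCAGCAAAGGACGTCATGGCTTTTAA
Ntrk3-201: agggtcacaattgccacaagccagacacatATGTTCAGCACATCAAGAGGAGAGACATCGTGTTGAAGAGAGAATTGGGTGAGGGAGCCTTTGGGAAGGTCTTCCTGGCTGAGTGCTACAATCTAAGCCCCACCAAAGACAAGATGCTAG

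Full-length TrkC itself comes in forms with inserted codons in its kinase-bearing part, and sortilin has a form with an extra exon. Each insert is shown because it sets the encoded protein of its form apart, and here every base belongs to the insert, so all are capitals. The forms also differ at their transcript ends. Ntrk3-205 carries 14 extra codons (chr7:78204103-78204144, minus strand). Ntrk3-206 carries the same 14 and a further exon (chr7:78229487-78229561, minus strand), 39 extra codons in all. Sort1-203 carries 33 extra codons (chr3:108355472-108355570, plus strand) that Sort1-201 lacks.
Ntrk3-205: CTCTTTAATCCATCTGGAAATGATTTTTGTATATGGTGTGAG
Ntrk3-206: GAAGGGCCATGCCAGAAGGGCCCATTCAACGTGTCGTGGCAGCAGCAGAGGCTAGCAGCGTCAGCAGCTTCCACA
Sort1-203: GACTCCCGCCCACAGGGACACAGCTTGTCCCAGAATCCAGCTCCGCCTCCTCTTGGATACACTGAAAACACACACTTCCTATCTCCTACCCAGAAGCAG

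Promoter sequence was taken from RefSeq (GRCm38.p6), where 4 of the 6 genes matched, with 11 start sites, 7 of them in Bdnf. Each window held the 250 bases before a start site and was searched on both strands for TGACGTCA (the cyclic AMP response element), its variant TCACGTCA, the E-box CACGTG and TATAAA. The first pair differ in 1 base, so no stretch can match both on the same strand. The window before Bdnf first exon IV (chr2:109692186-109692435, plus strand) held TCACGTCA, in capitals below, beginning at position -38 from the start. That motif was found in 0.35% of 32851 such windows.
Bdnf promoter IV: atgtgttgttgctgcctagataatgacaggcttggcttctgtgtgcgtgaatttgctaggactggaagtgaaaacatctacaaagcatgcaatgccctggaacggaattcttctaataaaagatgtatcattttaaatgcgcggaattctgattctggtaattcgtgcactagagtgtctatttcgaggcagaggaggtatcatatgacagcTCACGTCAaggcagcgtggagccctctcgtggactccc
The other 6 Bdnf windows held none of these letters. No window for the start of Bdnf first exon VI was among them, so the sequence before that exon was not searched. An Ntf3 window held CACGTG at position -231, a motif found in 6.02% of windows, against 1.55% for TGACGTCA and 12.4% for TATAAA. The matches are descriptions of sequence and were not tied to any binding measurement.

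The tables hold estimated counts, with library totals from 19174649 (Vehicle E) to 25894733 (Vehicle B) in the gene table. Levels are given in CPM, counts scaled to library size with edgeR's TMM factors. TPM, which also divides by transcript length, was used to compare genes or isoforms with each other. Of 14654 genes tested over the whole table, 1 passed an adjusted p of 0.05 in the comparison of AM6545 with vehicle, and the median log2 fold change was 0.01. Vehicle B had the highest share of mitochondrial counts, 9.83%, while the other 6 libraries lay between 5.07% and 6.66%. Log2 fold changes that moved by over 1.5 times without that library are given with and without it for the members described singly. In bulk RNA fewer structures of one kind and less RNA in each of them cannot be told apart.

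Measured per length, the TrkB receptor gene was the most abundant of the 6. Ntrk2 averaged 163 TPM over the 7 libraries, Sort1 72.1, Ntrk3 39.3, Bdnf 39.2, Ntf3 22.0 and Ngfr 0.0744. The lowest Ntrk2 library (125 TPM) lay above the highest Sort1 library (80.5 TPM), and the lowest Sort1 library (64.4 TPM) lay above the highest Ntrk3 library (43.3 TPM). These values sum all transcripts of a gene. For Sort1 they include a noncoding one, Sort1-202, at 16.3% (AM6545 E) to 64.9% (Vehicle B) of Sort1 per length. The ranking was not made for coding Sort1 alone. Ntrk3 and Bdnf did not differ beyond their spread, with ranges of 36.2 to 43.3 and 34.7 to 41.3 TPM. Ntf3 ran from 18.1 to 24.9 TPM and lay below both.

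None of the 6 genes passed the test between AM6545 and vehicle. Of the 5 with enough counts to be tested, 0 were called by edgeR's quasi-likelihood test at a Benjamini-Hochberg adjusted p of 0.05, where 0.00682% of all tested genes were. At an unadjusted p of 0.05 the count was also 0 of 5, against 14.6% of all tested genes. DESeq2 and limma-voom also called 0 of them. The groups overlapped for each gene, as the plot of the 6 genes by library shows.

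**Figure D1:**
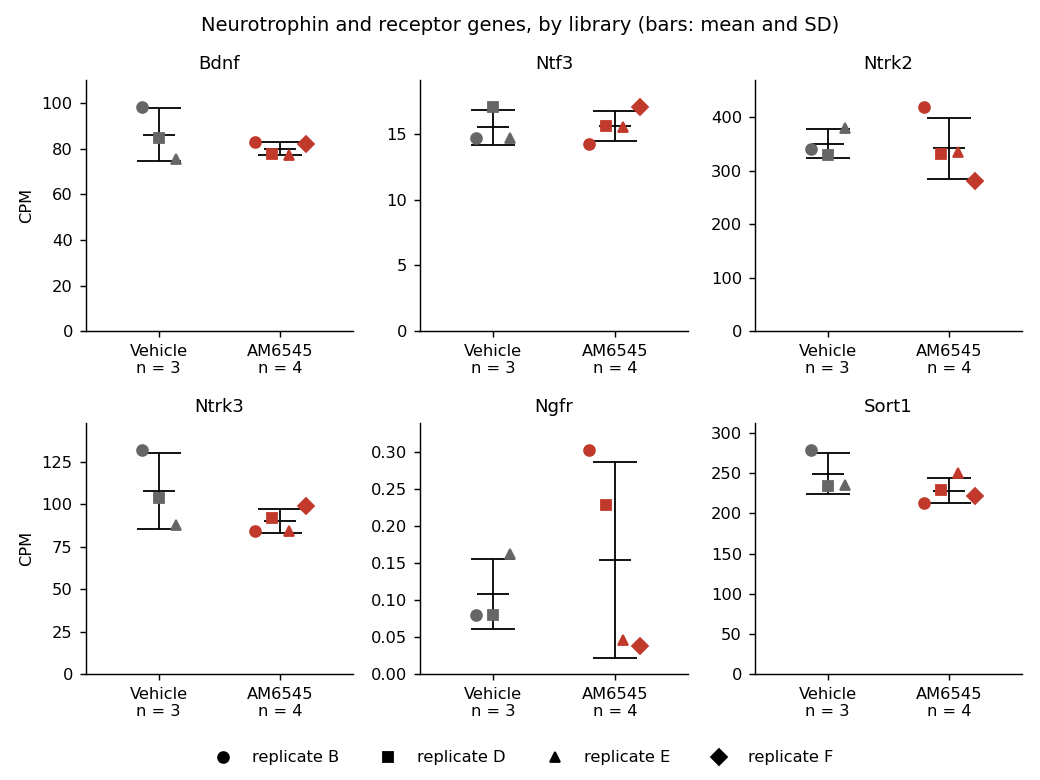
CPM of the 6 genes in each library, with vehicle in grey and AM6545 in red, marker shape giving the replicate letter, and bars the mean and SD of 3 and 4 libraries. The groups overlap in every panel, and Vehicle B is the highest library for Bdnf, Ntrk3 and Sort1.

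Of the ligands, Bdnf (ENSMUSG00000048482.15, chr2:109674700-109727007, plus strand) stood at 83.1, 77.7, 77.3 and 82.3 CPM in AM6545 B, D, E and F and at 98.5, 84.7 and 75.6 CPM in Vehicle B, D and E. Vehicle B was the highest library and Vehicle E the lowest, so the vehicle group spanned all AM6545 libraries. The means were 80.1 ± 3.02 CPM (SD, n = 4) and 86.2 ± 11.5 CPM (SD, n = 3). The log2 fold change was -0.11 (SE 0.11, adjusted p = 0.642 by edgeR's quasi-likelihood test with Benjamini-Hochberg adjustment), 0.00 without Vehicle B and -0.19 without Vehicle E. With a correction for GC content and length it was -0.33, with an unadjusted p of 0.0242 in that fit of edgeR and an adjusted p of 0.717.

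Ntf3, the gene of NT-3 (ENSMUSG00000049107.14, chr6:126101412-126166910, minus strand), was a low-abundance transcript. It stood at 14.2, 15.6, 15.5 and 17.1 CPM in AM6545 B, D, E and F and at 14.7, 17.1 and 14.7 CPM in Vehicle B, D and E. AM6545 B was lowest, and AM6545 F and Vehicle D were jointly the highest, so the groups overlapped throughout. Its log2 fold change was 0.01 (SE 0.11, adjusted p = 0.975, edgeR's quasi-likelihood test with Benjamini-Hochberg adjustment). Its direction flipped with voom weights (-0.07), with a replicate block (-0.04), and when any of AM6545 F, Vehicle B or Vehicle E was left out. Nearly all of it came from 1 isoform, Ntf3-203, at 98.5% of Ntf3 per length.

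Bdnf transcripts were grouped by first exon. The GENCODE models give 8 groups from 5′ to 3′, of which the groups numbered 1 to 6 follow the order of exons I to VI, and the 11 annotated transcripts carry the same coding exon. Transcripts beginning at group 6 made up most of Bdnf in each library, with group 4, the activity-responsive start shown above, next. Group 6 took 57.8%, 62.8%, 67.5% and 66.0% of Bdnf per length in AM6545 B, D, E and F and 61.2%, 63.7% and 63.6% in Vehicle B, D and E. The vehicle libraries all lay inside the AM6545 range, whose lowest value was AM6545 B and highest AM6545 E. Group 4 took 26.6%, 23.5%, 17.2% and 18.5% in AM6545 B, D, E and F and 24.7%, 21.7% and 19.4% in Vehicle B, D and E. Here AM6545 B was highest and AM6545 E lowest, again with the vehicle libraries between them.

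Group means differed little. Group 6 averaged 63.5% ± 4.29 (SD, n = 4) with AM6545 and 62.8% ± 1.43 (SD, n = 3) with vehicle, and group 4 averaged 21.4% ± 4.40 and 21.9% ± 2.65. Both gave p = 0.857 when all 35 regroupings of the 7 libraries were compared in an exact permutation test (two-sided), which cannot go below 0.0286. Group 2 averaged 9.26% ± 0.651 and 9.42% ± 1.04 (exact permutation p = 0.8), and group 1 averaged 5.67% ± 0.865 and 5.77% ± 1.69 (exact permutation p = 0.914). After Benjamini-Hochberg adjustment over 6 share tests all 4 exact values were 0.914. Groups 5 and 7 were listed at 0 in all libraries, and groups 3 and 8 never exceeded 0.33%. The exons of Bdnf share 896 of their 6217 bases with Gm45346, a gene on the opposite strand lying over first exons I and II. The use of strand in counting is not given in the sources used here, so the values of groups 1 and 2 are uncertain.

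**Figure D2:**
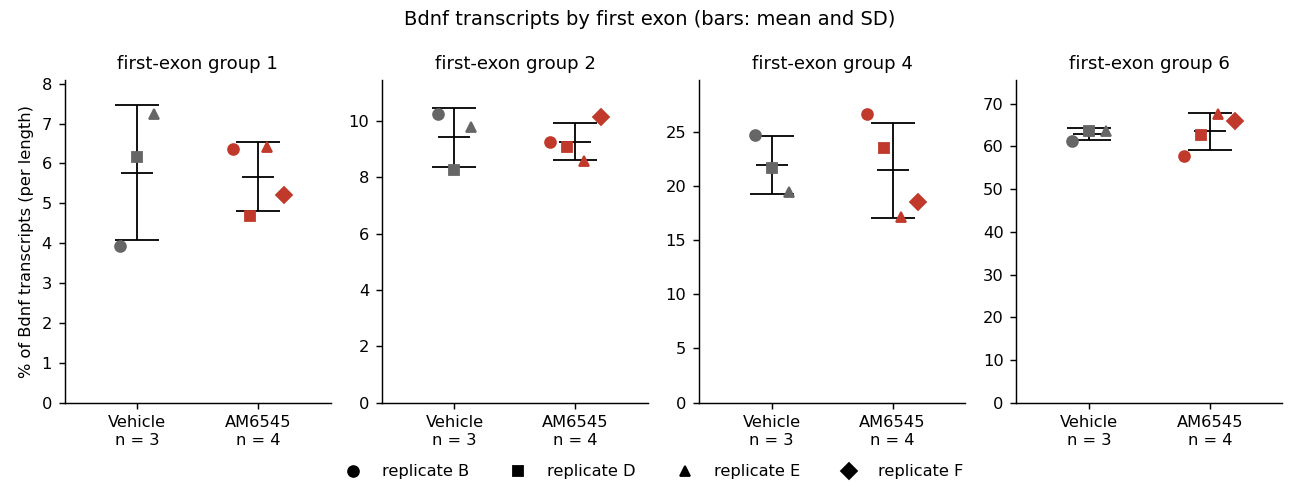
Share of Bdnf transcripts per length, in percent, that begin at first-exon groups 1, 2, 4 and 6, for each library (vehicle grey, AM6545 red, bars mean and SD, each panel with its own axis from 0). Group 6 holds 57.8% to 67.5% and group 4 holds 17.2% to 26.6%, with overlapping groups in all 4 panels.

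As single transcripts, the 5 tested Bdnf isoforms gave log2 fold changes between -0.15 and -0.06. The most abundant, Bdnf-205 (first-exon group 6), stood at 47.8, 48.7, 52.2 and 53.8 CPM in AM6545 B, D, E and F and at 60.1, 54.0 and 47.1 CPM in Vehicle B, D and E. Bdnf-209 (group 4) stood at 21.9, 18.2, 13.2 and 15.0 CPM with AM6545 and 24.2, 18.3 and 14.3 CPM with vehicle, in the same order of replicates. Vehicle B was again the highest library for both isoforms, and the groups overlapped. Without Vehicle B the log2 fold change of Bdnf-205 went from -0.09 to 0.00 and that of Bdnf-209 from -0.15 to 0.07.

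Among the receptors, Ntrk2 (ENSMUSG00000055254.16, chr13:58806569-59133970, plus strand) stood at 420, 332, 335 and 282 CPM in AM6545 B, D, E and F and at 342, 329 and 381 CPM in Vehicle B, D and E. The AM6545 group held both the highest library (B) and the lowest (F), with all vehicle libraries between them. The means were 342 ± 57.3 CPM (SD, n = 4) and 351 ± 27.1 CPM (SD, n = 3). The log2 fold change was -0.04 (SE 0.13, adjusted p = 0.913 by edgeR's quasi-likelihood test with Benjamini-Hochberg adjustment), and 0.05 without AM6545 F or 0.03 without Vehicle E. Scaled by total counts it was 0.00. On the per-length scale the order of the means was the opposite, 171 ± 37.2 TPM with AM6545 and 153 ± 28.3 TPM with vehicle.

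Most Ntrk2 RNA in this fraction was truncated. Per length, truncated transcripts made up 78.4%, 71.0%, 66.8% and 65.9% of full-length plus truncated Ntrk2 in AM6545 B, D, E and F and 67.3%, 67.8% and 74.2% in Vehicle B, D and E. AM6545 B was highest and AM6545 F lowest, and the vehicle libraries lay between. The means were 70.6% ± 5.71 (SD, n = 4) and 69.8% ± 3.86 (SD, n = 3), a difference of 0.775 percentage points (two-sided exact permutation p = 0.914, adjusted 0.914). The sign of this difference turned when AM6545 B (-1.85), Vehicle B (-0.463) or Vehicle D (-0.210) was left out. The level of full-length Ntrk2 varied little, at 48.9 ± 4.15 TPM with AM6545 and 45.4 ± 4.16 TPM with vehicle, while truncated Ntrk2 ran from 88.0 to 175 TPM in the AM6545 libraries and from 83.9 to 134 TPM in the vehicle libraries.

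**Figure D3:**
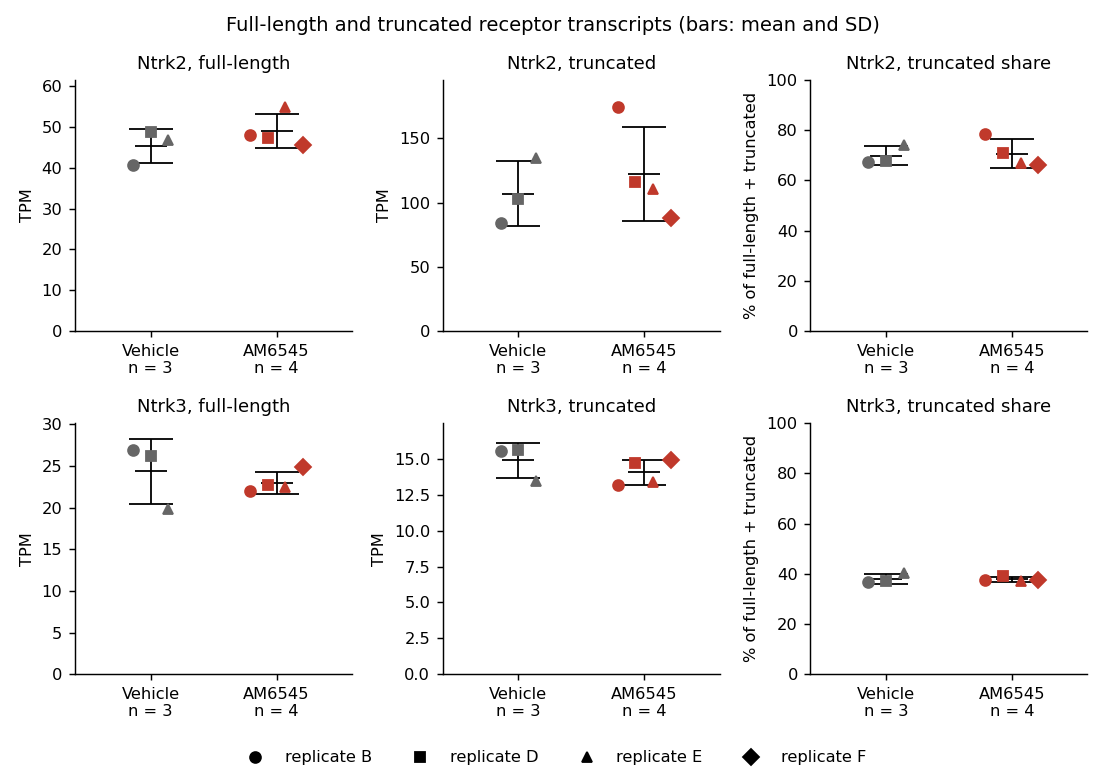
Full-length and truncated Ntrk2 and Ntrk3 in each library in TPM, and the truncated share in percent of both forms together (vehicle grey, AM6545 red, bars mean and SD of 3 and 4 libraries). Truncated forms hold 65.9% to 78.4% of Ntrk2 and 36.6% to 40.4% of Ntrk3, and the groups overlap in all 6 panels.

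The summed CPM of 10 astrocyte markers ran from 4225 to 5236 with AM6545 and from 4388 to 5660 with vehicle. AM6545 B, the library with the most Ntrk2-204, had 5236, and Vehicle E, the next, had 5660. Vehicle B had 5081 with one of the lowest Ntrk2-204 values. In Vehicle B the marker Slc1a2 alone gave 1111 of the 5081 CPM, against 539 CPM in AM6545 B and 789 CPM in Vehicle E. The part of astrocyte material in the Ntrk2 values was not tested.

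Ntrk2 RNA was divided among 5 tested transcripts. The shorter truncated one, Ntrk2-204 (3049 bases), led in each library at 210, 133, 127 and 104 CPM in AM6545 B, D, E and F and 109, 118 and 169 CPM in Vehicle B, D and E. AM6545 B stood well above the rest, AM6545 F was lowest, and the log2 fold change of 0.12 (SE 0.27) became -0.12 without AM6545 B, 0.01 without Vehicle B and 0.33 without Vehicle E. Ntrk2-204 made up 74.5% of truncated Ntrk2 per length over the 7 libraries. The shorter full-length transcript, Ntrk2-207 (4706 bases), was the steadiest of the 5, at 104, 104, 120 and 98.4 CPM with AM6545 and 91.6, 103 and 107 CPM with vehicle, and its log2 fold change was 0.08 (SE 0.10), or 0.03 without Vehicle B. Ntrk2-205, the rarer truncated form, stood at 32.1, 13.3, 10.9 and 6.08 CPM with AM6545 and 2.10, 8.25 and 17.4 CPM with vehicle. It was highest in AM6545 B and lowest in Vehicle B, with overlapping groups and a log2 fold change of 0.76 (SE 0.79). This value was 0.14 without AM6545 B, 0.29 without Vehicle B and 1.59 without Vehicle E.

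The longer Ntrk2 transcripts had lower means with AM6545, and this leaned in part on Vehicle B. Ntrk2-201 (full-length, 8744 bases) stood at 23.5, 17.5, 19.1 and 18.8 CPM in AM6545 B, D, E and F and at 44.9, 28.5 and 21.1 CPM in Vehicle B, D and E. Vehicle B was the highest library, and AM6545 B lay above Vehicle E, so the groups overlapped. Its log2 fold change was -0.68 (SE 0.25, unadjusted p = 0.0322, adjusted p = 0.569 by edgeR's quasi-likelihood test with Benjamini-Hochberg adjustment). Without Vehicle B it was -0.33, and without Vehicle E it was -0.90. Ntrk2-202 (truncated, 6846 bases, with the same coding length as Ntrk2-204) stood at 50.0, 64.9, 60.5 and 53.7 CPM with AM6545 and at 94.6, 73.6 and 61.1 CPM with vehicle. AM6545 D lay above Vehicle E, and Vehicle B was again highest. For this transcript the log2 fold change came to -0.42 (SE 0.16), with an unadjusted p of 0.0382 and an adjusted p = 0.574 by edgeR's quasi-likelihood test with Benjamini-Hochberg adjustment. It was -0.23 without Vehicle B and -0.56 without Vehicle E.

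Ntrk3 (ENSMUSG00000059146.13, chr7:78175959-78738012, minus strand) had the lowest unadjusted p of the 5 tested members. It stood at 84.6, 92.0, 84.6 and 99.2 CPM in AM6545 B, D, E and F and at 132, 103 and 87.7 CPM in Vehicle B, D and E. Vehicle B and Vehicle D were the highest libraries, while Vehicle E fell among the AM6545 libraries. The means were 90.1 ± 6.98 CPM (SD, n = 4) and 108 ± 22.5 CPM (SD, n = 3). The log2 fold change was -0.26 (SE 0.13, unadjusted p = 0.0719, adjusted p = 0.387 by edgeR's quasi-likelihood test with Benjamini-Hochberg adjustment). It was -0.08 without Vehicle B and -0.39 without Vehicle E (adjusted p = 0.0652 in that edgeR fit), and -0.07 with a correction for GC content and length. That correction used the GC content and length of Ntrk3-201 (19703 bases), the Ntrk3 transcript with the most counts.

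The balance of TrkC forms varied by only a few percentage points. Truncated Ntrk3 took 37.5%, 39.3%, 37.3% and 37.5% per length in AM6545 B, D, E and F and 36.6%, 37.3% and 40.4% in Vehicle B, D and E. Vehicle E was highest, Vehicle B lowest, and the AM6545 libraries lay between. The means were 37.9% ± 0.951 (SD, n = 4) and 38.1% ± 2.01 (SD, n = 3), a difference of -0.194 percentage points (two-sided exact permutation p = 0.829, adjusted 0.914). Taken as shares of counts, not divided by length, the difference was 0.745. Truncated Ntrk3-202 stood at 27.2, 29.8, 26.7 and 30.1 CPM with AM6545 and 37.3, 32.1 and 28.8 CPM with vehicle, with a log2 fold change of -0.20 (SE 0.11), or -0.09 without Vehicle B. Only Vehicle E overlapped the AM6545 libraries for this transcript.

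Full-length Ntrk3 came as 3 tested transcripts. Ntrk3-201 (19703 bases) held most full-length counts but averaged 15.5% of full-length Ntrk3 per length. Ntrk3-205 (2678 bases) averaged 47.1% and Ntrk3-206 (2774 bases) 37.4%, the forms with the inserts shown above. As shares of counts the 3 averaged 57.0%, 23.6% and 19.4%, so their order depends on the annotated lengths. The shares therefore do not measure use of the inserts. Ntrk3-201 stood at 30.4, 35.5, 32.3 and 39.8 CPM in AM6545 B, D, E and F and at 58.7, 40.7 and 32.4 CPM in Vehicle B, D and E (log2 fold change -0.35, SE 0.21). Without Vehicle B, its highest library, the log2 fold change was -0.08, and without Vehicle E it was -0.53. Ntrk3-205 stood at 11.8, 13.8, 18.5 and 18.3 CPM with AM6545 and 19.98, 16.6 and 11.4 CPM with vehicle (-0.03, SE 0.24, and 0.16 without Vehicle B). Ntrk3-206 stood at 15.1, 12.7, 7.61 and 10.5 CPM with AM6545 and 16.2, 14.7 and 13.3 CPM with vehicle (-0.36, SE 0.23, and -0.20 without AM6545 E). The form with the larger insert was lowest in AM6545 E, where the form with the smaller insert was highest among the AM6545 libraries.

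The p75 receptor gene Ngfr (ENSMUSG00000000120.7, chr11:95568818-95587735, minus strand) was close to absent from these libraries. It had 7, 6, 1 and 1 counts in AM6545 B, D, E and F and 2, 2 and 3 counts in Vehicle B, D and E, 22 in all. AM6545 B and D held the highest counts and AM6545 E and F the lowest, at 0.303 to 0.0384 CPM, too few for the filter on low counts. In the adult brain Ngfr is best known from cholinergic neurons of the basal forebrain. The cholinergic markers Chat, Slc18a3 and Slc5a7 summed to at most 1.22 CPM in any library, also too few for the filter. The reason for the low Ngfr counts was not tested.

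Sort1 (ENSMUSG00000068747.15, chr3:108284082-108361511, plus strand) stood at 213, 228, 250 and 221 CPM in AM6545 B, D, E and F and at 279, 234 and 235 CPM in Vehicle B, D and E. Vehicle B was highest, and AM6545 E lay above the other vehicle libraries. Sort1 had an estimate of -0.13 on the log2 scale (SE 0.10, adjusted p = 0.563 by edgeR's quasi-likelihood test with Benjamini-Hochberg adjustment), and -0.04 without Vehicle B. Its exons share 338 of 7569 bases with Gm12523 on the opposite strand.

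The transcripts of Sort1 held the largest log2 fold change in the set, and it too rested in part on Vehicle B. Sort1-202, a noncoding transcript that keeps an intron, stood at 43.4, 42.8, 32.7 and 64.8 CPM in AM6545 B, D, E and F and at 164, 89.0 and 56.6 CPM in Vehicle B, D and E. Vehicle B and Vehicle D lay above all AM6545 libraries, and Vehicle E below AM6545 F. The log2 fold change was -1.17 (SE 0.38, unadjusted p = 0.0187, adjusted p = 0.559 by edgeR's quasi-likelihood test with Benjamini-Hochberg adjustment). DESeq2 gave an adjusted p of 0.0898, and without Vehicle B the edgeR log2 fold change was -0.66 (unadjusted p = 0.0721). Per length this form took 24.9% ± 7.84 (SD, n = 4) of Sort1 with AM6545 and 46.3% ± 17.7 (SD, n = 3) with vehicle, where Vehicle B, D and E had 64.9%, 44.2% and 29.7%.

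The coding forms of sortilin leaned the other way, without passing the test. Sort1-201 stood at 152, 169, 194 and 141 CPM in AM6545 B, D, E and F and at 113, 134 and 155 CPM in Vehicle B, D and E (log2 fold change 0.29, SE 0.15, adjusted p = 0.653 by edgeR's quasi-likelihood test with Benjamini-Hochberg adjustment). Vehicle E lay above AM6545 B and F, so the groups overlapped, and without Vehicle B the estimate was 0.18. Sort1-203, with the 33 extra codons, stood at 18.05, 17.4, 26.0 and 14.2 CPM with AM6545 and 2.56, 12.7 and 19.9 CPM with vehicle (0.70, SE 0.61, 0.22 without Vehicle B and 1.31 without Vehicle E). Vehicle B was far below the other libraries for this form. Among coding Sort1 transcripts per length it took 10.2% ± 1.25 (SD, n = 4) and 7.35% ± 4.66 (SD, n = 3). The vehicle libraries B, D and E had 2.20%, 8.57% and 11.3%, with Vehicle B far below the AM6545 range of 9.10% to 11.8% and Vehicle D just below it.

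**Figure D4:**
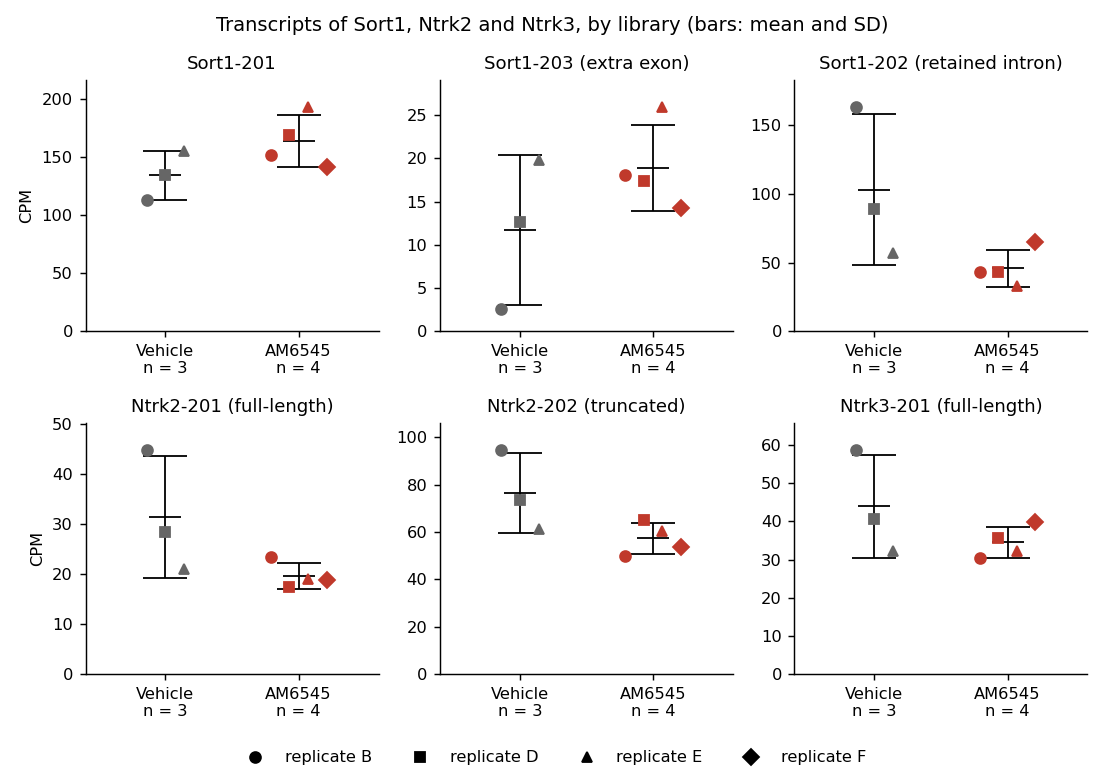
CPM of 6 transcripts of Sort1, Ntrk2 and Ntrk3 in each library (vehicle grey, AM6545 red, marker shape the replicate letter, bars mean and SD of 3 and 4 libraries). Vehicle B (grey circle) is the highest library for Sort1-202 at 164 CPM, Ntrk2-201 at 44.9, Ntrk2-202 at 94.6 and Ntrk3-201 at 58.7, and the lowest for Sort1-203 at 2.56.

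Over all isoforms, 18 of the 48 transcripts passed the filter on low counts, 5 of 11 for Bdnf, 1 of 3 for Ntf3, 5 of 10 for Ntrk2, 4 of 20 for Ntrk3, 0 of 1 for Ngfr and 3 of 3 for Sort1. Of the 30 that did not, 11 were at 0 in all libraries and none had over 39.9 counts in all. By edgeR's quasi-likelihood test 0 of the 18 were called at an adjusted p of 0.05, where 0.0177% of all tested transcripts were. At an unadjusted p of 0.05 there were 3 of 18 (Ntrk2-201, Ntrk2-202 and Sort1-202), against 8.39% of all tested transcripts. All 3 were lower with AM6545 and highest in Vehicle B, the library with 9.83% mitochondrial counts. Without Vehicle B 0 of 20 tested member transcripts were under that unadjusted threshold, and without Vehicle E 6 of 19 were. The share of all tested transcripts under it was not taken in those fits, so these counts have no background beside them. The part of Vehicle B's RNA make-up in these values was not tested.

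Across the 7 libraries the genes most like each member were named by Pearson's r of log2 CPM over 14177 genes, as a description only, since all points share library depth and make-up. For Bdnf they were Bola3 (r = 0.990) and Rab5c (0.983), and for Ntf3 they were Kmt5a (0.985) and Rab30 (0.965). Ntrk2 was closest to Slc38a3 (0.968) and Acaa2 (0.966). Ntrk3 was closest to Lbh (0.998) and Rnf126 (0.996), and Sort1 to Mfsd5 (0.987) and Slc4a3 (0.986).

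The wider pathway was read from 8 lists with 107 genes, of which 103 were tested. No pathway gene was called by edgeR's quasi-likelihood test (0 of 103), and at an unadjusted p of 0.05 there were 8 higher and 6 lower with AM6545, 13.6% of those tested against the 14.6% of all genes given above. Their median log2 fold change was 0.02, against 0.01 for all tested genes. Limma-voom with quality weights called 1 of them, Hap1, which is 0.971% of the pathway genes against 0.805% of all tested genes, and edgeR without Vehicle E called 5, namely Hap1, Usp8, Hras, Rtn4r and Npy. The latter is 4.85% of the pathway genes, where 6.38% of all tested genes were called in the same fit.

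**Figure D5:**
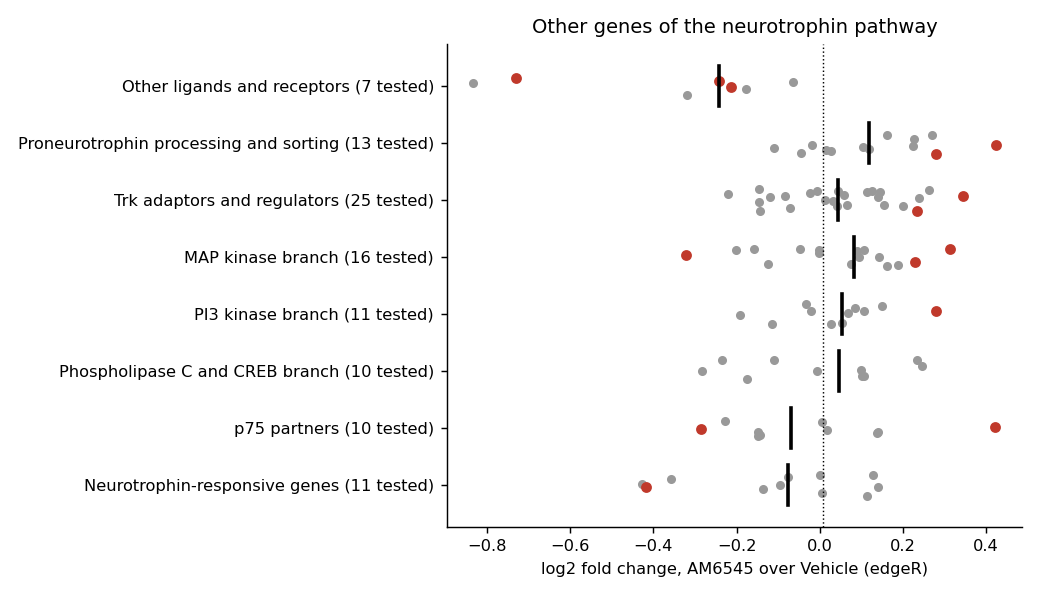
Log2 fold change (AM6545 over vehicle, edgeR) of each tested gene in 8 pathway lists, with red for an unadjusted p under 0.05, black bars for list medians and a dotted line for the median of all tested genes. The list of other ligands and receptors has the lowest median, -0.24, and the list of processing and sorting genes the highest, 0.12.

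In the list of other ligands and receptors, 7 of 8 were tested and all 7 had lower estimates with AM6545 (median -0.24), with 3 under an unadjusted p of 0.05 and 0 called. The lowest p belonged to Nradd, a p75-like death-domain protein, which averaged 1.29 ± 0.287 CPM (SD) over the AM6545 libraries and 2.17 ± 0.183 CPM (SD) over the vehicle libraries. All its AM6545 libraries lay below the vehicle libraries (log2 fold change -0.73, adjusted p = 0.236, edgeR's quasi-likelihood test with Benjamini-Hochberg adjustment). Sorl1, a sorting receptor of the sortilin family, averaged 218 ± 9.10 and 252 ± 20.4 CPM. Its groups did not overlap either, and its log2 fold change of -0.21 was -0.05 after a correction for GC content and length. Of all tested genes, 7.19% lay wholly below vehicle with AM6545 and 6.62% wholly above. Among the 103 tested pathway genes 12 did one or the other.

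Genes of proneurotrophin processing and sorting were mostly higher in estimate (10 of 13, median 0.12), with 2 under an unadjusted p of 0.05. Hap1, which binds huntingtin and takes part in the transport of BDNF precursor, stood at 116, 115, 94.1 and 106 CPM in AM6545 B, D, E and F and at 73.1, 71.8 and 96.7 CPM in Vehicle B, D and E. Vehicle E lay just above AM6545 E, and the other vehicle libraries were well below. The log2 fold change was 0.43 (SE 0.13, unadjusted p = 0.00534, adjusted p = 0.218 by edgeR's quasi-likelihood test with Benjamini-Hochberg adjustment), 0.46 after the GC and length correction. Cadps2, which promotes release from dense-core vesicles, averaged 57.0 ± 4.01 and 46.9 ± 7.89 CPM (log2 fold change 0.28, and 0.20 corrected). The convertase gene Pcsk2 was at -0.05 and the huntingtin gene Htt at -0.11, and at -0.17 and 0.11 after the correction.

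Signalling lists gave few genes in either direction, and the correction for GC content and length moved many of their estimates. Among 25 adaptors and regulators of Trk receptors 2 were higher at an unadjusted p of 0.05, the endosomal deubiquitinase Usp8 (log2 fold change 0.35, corrected 0.19) and the adaptor Frs2 (0.23, corrected 0.18). Of those with negative estimates Ptprf (-0.22, corrected -0.00034) and Lrig2 (-0.14, corrected -0.17) had the lowest p. In the MAP kinase branch 2 of 16 were higher, among them the CREB-directed kinase Rps6ka5 (0.31, corrected 0.20), and 1 was lower, Hras (-0.32, corrected -0.03). Map2k2 was at -0.20 and turned to 0.04 with the correction. In the PI3 kinase branch 1 of 11 was higher, Pik3cb (0.28, corrected 0.17), beside Gsk3a (-0.12, corrected 0.0015). None of the 10 genes of the phospholipase C and CREB branch was under an unadjusted p of 0.05 in edgeR. Camkk1 was at 0.25 (corrected 0.23), Camk4 at 0.23 (corrected 0.13) and Itpr1 at -0.23 (corrected -0.11).

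Among 10 partners of p75, Traf6 was higher (log2 fold change 0.42, unadjusted p = 0.0189, adjusted p = 0.266 by edgeR's quasi-likelihood test with Benjamini-Hochberg adjustment) and the Nogo receptor gene Rtn4r lower (-0.29, and -0.07 after the correction). Ripk2 was at 0.14 (corrected 0.01) and Bex1 at -0.23 (corrected 0.04). Of 11 neurotrophin-responsive genes 1 was lower at an unadjusted p of 0.05, the neuropeptide gene Npy. It stood at 39.5, 39.2, 43.5 and 45.9 CPM in AM6545 B, D, E and F and at 69.4, 54.4 and 44.4 CPM in Vehicle B, D and E. Vehicle B was highest and Vehicle E fell among the AM6545 libraries, and the log2 fold change of -0.42 was 0.01 after the correction. Cort was at -0.36 and Homer1 at 0.11, which turned to 0.09 and -0.12 with the correction, and Dusp6 was at 0.14 (corrected 0.04).

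Markers of the cell types that this fraction can hold are given for the same libraries. Synaptic markers summed to 7181 to 7426 CPM with AM6545 and 6589 to 6886 CPM with vehicle. Glutamatergic markers summed to 3764 to 4083 and 4114 to 4834 CPM, and neither sum overlapped between the groups. Neither gap remained when 1 gene was left out, in sums recomputed after the data were seen. Without Snap25 the synaptic sums were 3430 to 3832 and 3350 to 3677 CPM, and without Nrgn the glutamatergic sums were 2483 to 2648 and 2515 to 2767 CPM, both overlapping. Of the 5 synaptic markers 4 had higher estimates with AM6545. The other, the postsynaptic scaffold gene Dlg4, had a log2 fold change of -0.52 (SE 0.21), with overlapping groups. Microglial markers ran from 937 to 1020 with AM6545 and from 973 to 1245 CPM with vehicle, and oligodendrocyte markers from 16484 to 19621 and from 16389 to 22271 CPM, so RNA of glia was plentiful in the fraction. Markers of choroid plexus, which is no part of the hippocampus, ran from 413 to 1954 with AM6545 and from 1560 to 2760 CPM with vehicle. In Vehicle D, the highest library, Ttr alone gave 2574 of the 2760 CPM. Of 59 tested marker genes edgeR called 0, with 11 lower and 0 higher at an unadjusted p of 0.05, or 18.6% against the 14.6% of all tested genes (1275 lower and 859 higher), and the part of cell make-up in the values of the 6 genes was not tested.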

How the data were processed

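The authors deposited estimated counts per gene and per transcript, 1 column per library, not scaled to a common total. The submitters' processing notes name Salmon 1.5.2 and mm10. The annotation release and the use of strand are not given in the sources used here. Identifiers were matched without version numbers to GENCODE M21, which held 22194 of 22248 genes and 101575 of 102392 transcripts.

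Counts were rounded and tested with edgeR 4.0.16 in R 4.3.3 (TMM, filterByExpr, robust quasi-likelihood F-test of AM6545 against vehicle), with Benjamini-Hochberg adjustment over all tested entries. DESeq2 1.42.0 and limma-voom (limma 3.58.1) were alternatives, beside other scalings, no filter, a lowess correction for GC content and length (span 0.3), a replicate block and leaving out each library. The correction gave each gene the GC content and length of its transcript with the most counts, and was run for genes only, not for transcripts. The fit was tested on simulated data. Isoform shares used estimated counts divided by transcript length, over full-length and truncated coding transcripts for Ntrk2 and Ntrk3 and over all transcripts for Bdnf, whose first-exon groups averaging at least 5% were compared by exact permutation. Other isoform shares are descriptions with no test.

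Named were the 6 members, their tested transcripts, up to 2 pathway genes per list and direction with the lowest p, and the 2 genes most correlated with each member; a few pathway genes that this rule picks are not reported here. Members and lists were chosen with earlier results of these data known. Library totals of 19174649 to 25894733 set the counting precision. Errors printed are SDs over libraries or standard errors of the fit. No library was left out.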

Additional observations from a re-analysis of the deposited data

Results flagged for a closer look

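Isoform shares and levels were screened for a library far from the other AM6545 libraries (Dixon's test at the 95% level, groups of 4), and 3 of 32 values stood out. AM6545 D had a truncated Ntrk3 share of 39.3%, against 37.3% to 37.5% in the other AM6545 libraries, and Vehicle E was higher still at 40.4%. The Bdnf first-exon group 3 share was 0.33% in AM6545 E and 0 in the other AM6545 libraries, and Vehicle D had 0.222%. The Bdnf first-exon group 8 share was 0.214% in AM6545 F and 0 in the other 6 libraries. Where 3 of 4 values are 0, as in the last 2, any value above 0 stands out by construction. These 2 rest on transcripts with 9.63 and 4.49 estimated counts over all libraries. For measurements without such zeros chance gives about 1 in 20 groups.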

How the results depend on the processing

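Member genes called and member transcripts called stayed at 0 under each alternative run, also where other settings called more genes overall (222 with DESeq2, 118 with voom, 944 without Vehicle E). Pathway genes called were 1 with voom and ranged from 0 to 5 over fits that left out 1 library, the 5 without Vehicle E.

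The sign of uncalled estimates near 0 turned in several settings, and the cause was not tested. The log2 fold change of Ntf3 was -0.066 with voom, -0.035 with the replicate block and -0.0040 with the block and GC correction. That of Ntrk2 was 0.041 with the block and 0.00036 with total counts. Bdnf-207 was at 0.048 with the block and Bdnf-210 at 0.18 with voom, while total counts gave 0.023 for Ntf3-203 and 0.0010 for Ntrk3-205. The truncated Ntrk3 difference was 0.745 as shares of counts.

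Leaving out 1 library at a time gave log2 fold changes of -0.19 to 0.00079 for Bdnf, -0.037 to 0.086 for Ntf3 and -0.15 to 0.047 for Ntrk2. For transcripts the ranges were -0.23 to 0.0017 for Bdnf-201, -0.18 to 0.0043 for Bdnf-205, -0.42 to 0.15 for Bdnf-207, -0.32 to 0.068 for Bdnf-209 and -0.28 to 0.12 for Bdnf-210. They were -0.050 to 0.079 for Ntf3-203, -0.12 to 0.33 for Ntrk2-204 and -0.24 to 0.16 for Ntrk3-205. Truncated shares differed by -1.85 to 3.0 points (Ntrk2) and -0.939 to 0.949 points (Ntrk3).

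The labels do not say whether the replicate letters pair the libraries. Deviations of same-letter libraries correlated at -0.26 (B), -0.13 (D) and -0.18 (E). Those of libraries with different letters correlated at -0.17 to 0.22, and so few libraries cannot settle whether the letters mark pairs. With the letter as a block 0 member genes, 0 pathway genes and 0 member transcripts were called. With 22 counts in all, Ngfr was too shallow to be tested.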
